A study of Drosophila melanogaster with 3 samples.

Results

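Peaks of the zinc finger protein CG2678 that stood close together on the fly genome were examined as clusters. The peaks came from chromatin immunoprecipitation sequencing (ChIP-seq), in which DNA bound to a protein is precipitated and sequenced, and each peak has a summit, the position of its highest enrichment. On the list of peaks that passed the authors' threshold of irreproducible discovery rate (IDR), which compares the ranks of peaks between replicates, neighbouring summits at most 3000 bp apart on a chromosome were joined. Every run of 4 or more summits was taken as a cluster. This gave 448 clusters with 2303 summits, or 24.3% of the 9459 summits on the list, and 7156 summits that lay alone or in runs of 2 or 3. The clusters were thus chosen by the positions of the peaks themselves, so their number, size and spacing are given as a description with no test.

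The material was 1 group of samples: whole Drosophila melanogaster embryos of both sexes pooled, collected over the span from 0 to 24 h of age, of a transgenic line that makes CG2678 fused at its C terminus to GFP. Sonicated chromatin, of 200 to 800 bp, was immunoprecipitated through the GFP tag in each of 3 biological replicates. There was no untreated, untagged or second group, the tissues of the embryo were not separated, and no control library was used here, so binding in different cells, open chromatin and enrichment in the control cannot be told apart. The peak lists hold no read counts, so depth is unknown and errors are given only as the spread among 3 replicates.

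CG2678, also named kipferl, is known from Drosophila ovaries, where it brings the heterochromatin protein Rhino to source loci of piRNAs, the small RNAs that silence transposons, and where it binds G-rich sequence. Groups of neighbouring binding sites are a common feature of the regulatory DNA of fly genes: a gene that is used in many tissues and stages often has several enhancers, which are short stretches of DNA that raise transcription, spread over its introns and the sequence around it. Such stretches are commonly bound by many factors at once. Promoters, in contrast, lie at the transcription start site (TSS) itself.

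The sequence beneath clustered summits had a high content of A and T, and on average the flanks were richer in G and C. The following windows, which reach 50 bases to either side of the strongest summit of a large intronic cluster and touch no annotated exon, show this core. They are on the plus strand of the RefSeq copy of dm6, 5′ to 3′, with the longest unbroken run of A and T in capitals. They lie in introns of CHES-1-like, a gene of a forkhead transcription factor (chrX:7706931-7707031, GC content 17.8%), Pdp1, a gene of a bZIP transcription factor of the circadian clock (chr3L:7863850-7863950, 22.8%), pnt, which encodes the ETS transcription factor Pointed (chr3R:23335675-23335775, 23.8%), and Raf, the kinase that relays receptor tyrosine kinase signals (chrX:2297679-2297779, 39.6%).
CHES-1-like: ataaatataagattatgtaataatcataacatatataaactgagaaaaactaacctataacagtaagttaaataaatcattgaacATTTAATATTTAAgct
Pdp1: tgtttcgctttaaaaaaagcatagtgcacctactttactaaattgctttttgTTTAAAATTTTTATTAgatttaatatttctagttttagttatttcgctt
pnt: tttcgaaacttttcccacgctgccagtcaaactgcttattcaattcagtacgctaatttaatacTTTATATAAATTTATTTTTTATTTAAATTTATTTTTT
Raf: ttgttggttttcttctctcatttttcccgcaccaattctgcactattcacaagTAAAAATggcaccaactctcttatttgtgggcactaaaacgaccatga
The longest run of A and T was 13 bases at CHES-1-like, 16 at Pdp1 and 37 at pnt, but 7 at Raf.

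Summits close to each other in a cluster could differ sharply in base composition, and so could the flanks of a summit. The next windows are from the CHES-1-like cluster and are printed in the same way. The first is a summit with a signal of 1544.0 (chrX:7701769-7701869, GC content 25.7%), and the second is its neighbour 199 bp away with a signal of 350.9 (chrX:7701968-7702068, 51.5%). The intervals of this pair are nearly the same, so the 2 summits share reads. The last are the flanks centred 300 bp before and after the strongest summit of the cluster, of which the left had 29.7% (chrX:7706631-7706731) and the right 45.5% (chrX:7707231-7707331).
stronger of the pair: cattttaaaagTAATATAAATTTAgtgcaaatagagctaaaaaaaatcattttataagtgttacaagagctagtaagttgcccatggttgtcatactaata
weaker of the pair: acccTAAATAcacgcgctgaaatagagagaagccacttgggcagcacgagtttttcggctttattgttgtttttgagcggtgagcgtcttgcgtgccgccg
left flank: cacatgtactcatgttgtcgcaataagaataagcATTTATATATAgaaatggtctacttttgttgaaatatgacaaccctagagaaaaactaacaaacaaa
right flank: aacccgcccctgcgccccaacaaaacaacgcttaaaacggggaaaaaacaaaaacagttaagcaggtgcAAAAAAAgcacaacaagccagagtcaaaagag
The signal is the authors' score of each peak as deposited. It is used here only to rank and describe peaks within a list.

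The same was measured over all members. GC content within 50 bp of the summit averaged 33.4% at clustered summits and 32.1% at the other IDR summits, against 43.1% and 44.1% in flanks centred 300 bp away. It was lower at the summit than in the flank at 1757 of the 2303 clustered summits (76.3%) and at 81.1% of the others. To test the difference on lists of single replicates, the rule was applied to the 9459 strongest peaks of each replicate. Clustered summits then had a GC content of 33.7% in replicate 1, 33.4% in replicate 2 and 34.0% in replicate 3, against 33.1%, 32.3% and 32.6% at other summits. Clustered summits were higher in each replicate, by 1.02 percentage points on average (± 0.398, SD, n = 3; exact two-sided permutation test by sign flips, p = 0.25). That p is the smallest that 3 replicates can give, here and below. The step was not at the size of a cluster: in the IDR list GC content was 31.2% at lone summits, 33.0% in runs of 2 or 3, 33.3% in clusters of 4 and 33.6% in the largest clusters. In the replicates it was 31.9% ± 0.567 at lone summits, 33.4% ± 0.346 in runs of 2 or 3 and 33.2% ± 0.459 in clusters of 4 (SD, n = 3), and clusters of 4 were lower than runs of 2 or 3 in 2 of 3 replicates.

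**Figure D1:**
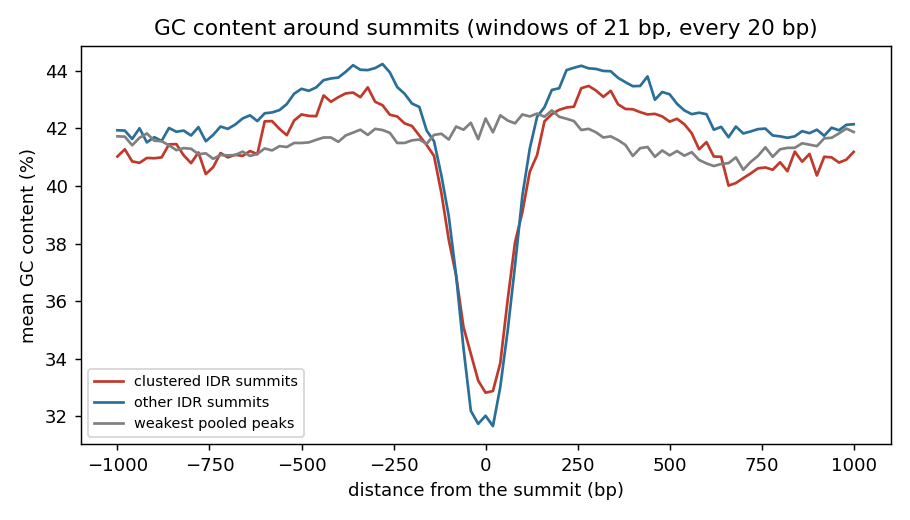
Mean GC content (%) in windows of 21 bp against distance from the summit (bp), for clustered IDR summits, other IDR summits and as many of the weakest pooled peaks. The curve of the clustered summits falls to 32.8% at the summit, close to the 32.0% of the other IDR summits, whereas the weakest pooled peaks stay at 42.3%.

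On average the weaker summit of a close pair was the richer in G and C. Among neighbouring summits of a cluster at most 250 bp apart, of which there were 244 pairs, GC content averaged 32.0% at the stronger and 37.2% at the weaker summit, a difference of 5.20 percentage points. In clusters of the single replicates this difference was 7.42, 7.42 and 5.89 points (6.91 ± 0.883, SD, n = 3; exact permutation p = 0.25). Among the 707 clustered pairs from 1000 to 2000 bp apart it was 3.25 points (replicates 3.67 ± 0.372, exact permutation p = 0.25). The weaker summit was the richer in 156 of the 244 close pairs (63.9%) and in 419 of the 707 (59.3%), so many single pairs went the other way. Close pairs outside clusters gave 6.78 points, so the contrast was not particular to clusters. Of the 244 close pairs 230 had overlapping peak intervals, and only 39 clustered pairs were from 250 to 500 bp apart. Summits of overlapping intervals share reads and are not separate measurements.

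Most clusters were small. Of the 448 clusters 220 had 4 summits, 108 had 5, 53 had 6 and 67 had 7 or more, of which 11 had at least 10 and the largest had 24. Spans from the first to the last summit ran from 1128 to 33638 bp with a median of 5153 bp, and together they covered 2464 kb, or 1.84% of the chromosome arms. Neighbouring summits were 199 to 2999 bp apart with a median of 1218 bp, close to the median of 1270 bp within runs of 2 or 3. The peak interval of 608 members (26.4%) overlapped that of another IDR summit, against 9.77% of other summits, and 222 clusters had no overlapping intervals. How the authors' caller placed summits and set intervals is not stated in the labels or lists, and its part in the shortest distances was not tested.

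The threshold of the rule cut through a continuous distribution. Just outside it were 483 runs of 3 summits, and the median signal was 511.0 in runs of 3 and 508.7 in runs of 4. Inside clusters 35 distances were within 100 bp below the limit of 3000 bp. Between neighbours anywhere on the list, 80 distances exceeded it by at most 100 bp. The second count is not limited to clusters, so the 2 counts are not compared. Over all members the median signal was 557.6 (236.9 to 19817) against 509.4 for other summits, and 29.1% of the 946 strongest IDR summits were clustered, against 21.9% of the set of lowest signal. Signals within a cluster were uneven: the strongest summit had a median of 2.70 times the cluster's median signal, and in 298 clusters it was more than 2 times that median.

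**Figure D2:**
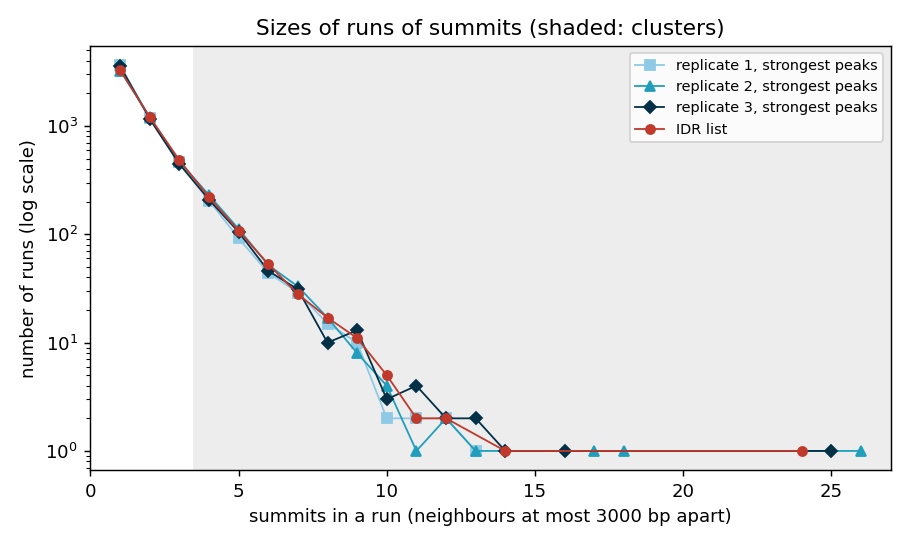
Number of runs (log scale) against the number of summits in a run, for the IDR list and for the 9459 strongest peaks of each replicate, with clusters in the shaded area. The 4 curves lie close together up to 6 summits, and the largest run has 24 summits in the IDR list and 13, 26 and 25 in replicates 1, 2 and 3.

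Clustered summits were found again in the replicates about as often as other summits. A summit among a replicate's 9459 strongest peaks lay within 100 bp of 78.7% of the members in replicate 1, 88.6% in replicate 2 and 81.2% in replicate 3. All replicates matched 1457 members (63.3%), against a background of 62.0% of all IDR summits and 61.6% of those outside clusters, and no replicate matched 34 members. The share of members is near the background, and the IDR peaks were called on the same replicates pooled, so nothing is read from it. The strongest summit of each cluster was matched in all replicates in 95.1% of clusters, and the remaining members in 55.6%. Their median signals were 1689.4 and 455.8. A match requires a place among a replicate's strongest peaks, so this contrast follows from picking summits by their pooled signal.

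Clusters as a whole recurred more often the larger they were. The rule gave 402 clusters in the list of replicate 1, 463 in that of replicate 2 and 428 in that of replicate 3 (mean 431 ± 30.6, SD, n = 3). Of the 448 IDR clusters 295 (65.8%), 351 (78.3%) and 323 (72.1%) overlapped a cluster of the respective replicate, and of the replicates' own clusters 73.9%, 76.5% and 75.7% overlapped an IDR cluster. An overlap in every replicate was found for 215 IDR clusters (48.0%), in 2 replicates for 122, in 1 for 80 and in none for 31. It was found for 50 of the 220 clusters of 4 summits (22.7%), for 106 of the 161 of 5 or 6 (65.8%) and for 59 of the 67 of 7 or more (88.1%). A cluster of 4 stops being a cluster when 1 summit drops out, so these shares depend on the rule itself.

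The largest cluster lay in shn, which encodes Schnurri, a zinc finger transcription factor that acts downstream of the growth factor Dpp. Its 24 summits on 2R, from 11173593 to 11207231, all fell within the gene, 20 in introns and 4 within 500 bp of a TSS. The strongest, at 11184558 in an intron 1334 bp downstream of a TSS of shn, had a signal of 4996.3, with ranks of 241, 156 and 199 in the replicates. The weakest had a signal of 276.0. Replicates 1, 2 and 3 matched 20, 23 and 21 of the 24 summits, and 17 were matched in all of them. Overlapping clusters in the replicates had at most 13, 26 and 25 summits, so that replicate 1 gave a shorter cluster there than the others. A further 14 pooled peaks that were not on the IDR list lay within the span.

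**Figure D3:**
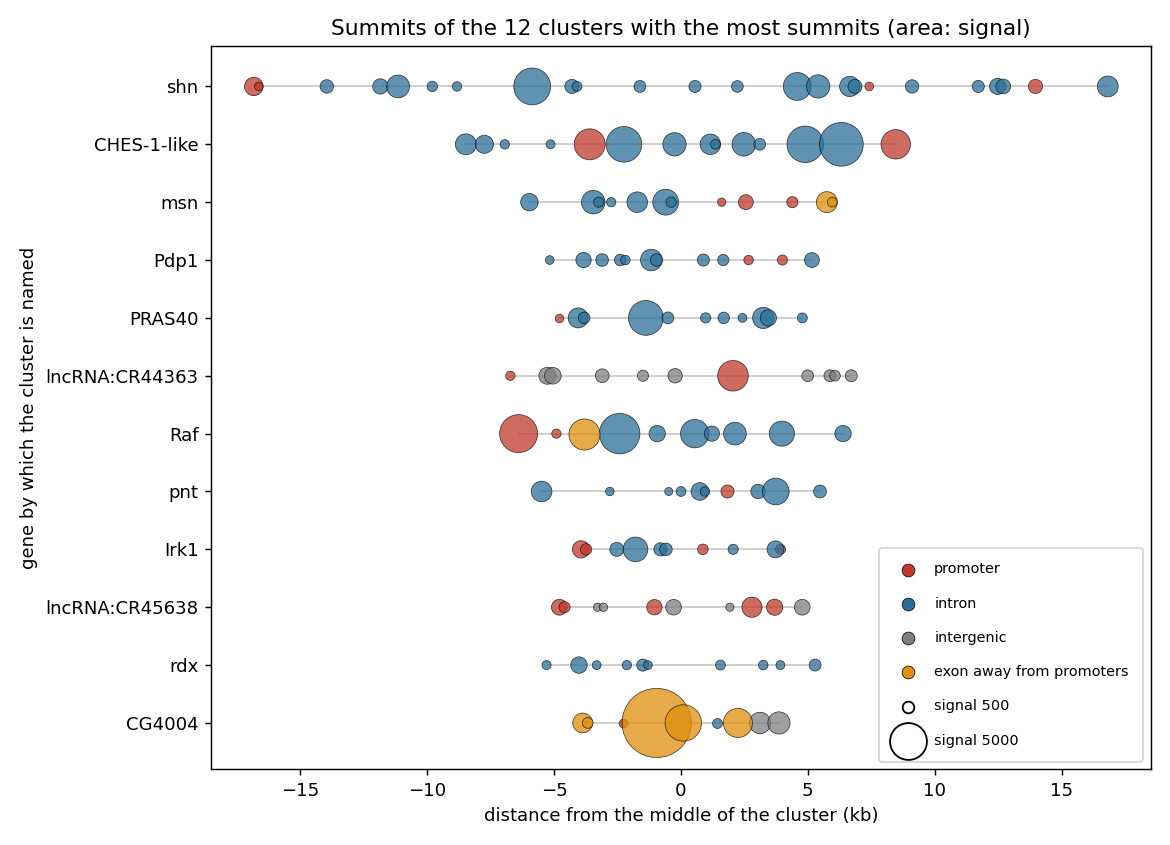
Summits of the 12 clusters with the most summits, by distance from the middle of the cluster (kb), with the area of each circle proportional to its signal and its colour giving its position. Summits in introns fill most rows, lncRNA:CR44363 has 9 intergenic summits, and a single circle of 17645.3 dominates the cluster named by CG4004.

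The next clusters in size had most of their summits in introns. CHES-1-like held all 14 summits of a cluster on X from 7692189 to 7709122, 12 of them in introns, with signals from 295.1 to 7041.9. Its strongest summit ranked 87, 77 and 88 in the 3 replicates, and the replicates had clusters of 12, 18 and 16 summits there. A cluster of 12 summits on 3L had 7 in introns, 3 at promoters and 2 in 5′ UTRs, with 8 inside msn, which encodes the kinase Misshapen, and 2 inside its neighbour dos, an adaptor of receptor tyrosine kinases. Another 12 summits on 3L included 9 in Pdp1, and its strongest signal was 1707.5. PRAS40, a gene of the insulin and TOR pathway, held 11 summits on 2R, 10 of them in introns.

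Raf and pnt, which act in the same signalling pathway downstream of the epidermal growth factor (EGF) receptor, each had a cluster of 10. The Raf cluster on X ran from 2293748 to 2306527 and had the higher median signal, 2115.7 against 620.2. Its strongest summit, at 2297729 in an intron, had a signal of 6026.5 and ranked 126, 113 and 140, and 9 of its 10 summits were matched in all replicates. In pnt 9 summits lay in introns and 6 were matched in all replicates. The strongest, at 23335725 with a signal of 2624.5, ranked 1036, 525 and 583. Irk1, a potassium channel gene on 3R, held 10 summits, 8 of which also lay in the nested gene CG46310. The 10 summits in introns of rdx, which encodes a BTB adaptor that limits Hedgehog signalling, were weak: the strongest had a signal of 997.3, and 4 were matched in all replicates.

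Some clusters had few or no summits inside a gene. The cluster of 11 summits named here by lncRNA:CR44363, on 3L from 11397260 to 11410689, had 9 intergenic summits and its strongest, with a signal of 3442.8, at a promoter. The cluster named by lncRNA:CR45638 on 3R had 5 intergenic and 5 promoter summits, 2 of which lay 274 and 479 bp upstream of mtSSB, a protein-coding gene, and the others at long noncoding RNA genes. Replicates 1, 2 and 3 matched 9, 8 and 5 of its 10. In all, 403 clusters had a summit in a protein-coding gene or up to 500 bp before its start, and 45 had none.

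Among the further clusters of 8 or 9 summits, those of CG1677 on X, ftz-f1, a nuclear receptor gene, and RapGAP1, a gene of a regulator of the small GTPase Rap, were intronic, with 8, 9 and 8 summits in introns of 9 each. Those of gpp, the histone H3 methyltransferase gene, Fim, which encodes the actin bundler Fimbrin and overlaps CG5445, and brat, a gene of a translational repressor, had 6, 7 and 5 of 9 in introns. Clusters at promoters were found at Pgk, a glycolytic gene, with 8 of 9 summits within 500 bp of a TSS of Pgk or Bacc, at CG1888 and CG10365, with 5 of 9 and 5 of 8, and at Hex-A, a hexokinase gene, with 4 of 8. Intergenic summits led at Krn, which encodes the EGF receptor ligand Keren, with 6 of 9, at lncRNA:CR45251, with 6 of 8, and at glec, which encodes gliolectin, with 5 of 9. Among the 25 clusters with the most summits only gpp and glec lacked an overlapping cluster in some replicate, gpp in replicate 3 and glec in replicate 1. Summits of some of these clusters shared peak intervals. The 9 of Pgk lay in 4 intervals, and the 8 of lncRNA:CR45251 also in 4, so they are not as many separate measurements. The longest spans after shn were those of CHES-1-like, 16933 bp, and glec, 16033 bp.

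The 5 clusters with the highest single signals were of moderate size, and their leading summits ranked within the first 23 in every replicate. The first was the cluster of 7 summits in ush, the gene of a GATA cofactor, and cbt, a zinc finger factor gene. Its signals were 525.4, 5545.5, 19817, 2045.9, 640.1, 1591.8 and 577.0 from left to right on 2L, and the strongest ranked 5, 1 and 6. In the cluster of 9 summits named by CG4004, the summit of 17645.3 lay in an exon of a long noncoding RNA 546 bp upstream of lncRNA:CR44619 and ranked 8, 4 and 5.

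The other three of them were at genes of chromatin regulators and of wing patterning. Trl, the gene of GAGA factor, had 5 summits in a span of 4281 bp, with signals of 2888.4, 1939.9, 556.9, 15800.7 and 1111.6. The 5 summits at ph-p, a Polycomb group gene, spanned 3532 bp and included neighbouring summits of 13391.7 and 10914.2. These lay 450 bp upstream and 413 bp downstream of different TSSs of ph-p, each the nearest to its summit. In px, a gene of wing vein patterning, 4 summits lay in introns with signals from 414.9 to 1180.1, and the promoter summit had 12640.3. All 5 summits at each of these genes were matched in all replicates, and their strongest ranked 9, 5 and 7 (Trl), 7, 12 and 9 (ph-p) and 11, 10 and 23 (px).

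Clustered summits lay in introns more often and at promoters less often than other IDR summits. Introns held 1236 members (53.7%) against 43.0% of other summits, and promoters, taken as 500 bp on either side of any annotated TSS, held 650 (28.2%) against 36.3%. Intergenic sequence held 347 members (15.1%) against 18.3%, and coding sequence 2 members against 18 other summits. In the replicates' own lists the intron share of clustered summits was 47.7%, 51.4% and 53.3%, against 37.4%, 42.9% and 44.1% of other summits, a difference of 9.33 percentage points (± 0.892, SD, n = 3; exact permutation p = 0.25). The promoter share was 33.7%, 29.1% and 26.7% against 43.7%, 38.1% and 34.6%, a difference of -8.97 points (± 1.04, SD, n = 3; exact permutation p = 0.25). Both differences had the same sign in 3 of 3 replicates and were larger than their spread.

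The shares shifted with the size of the run. In the IDR list promoters held 35.4% of lone summits, 37.0% of those in runs of 2 or 3, 30.1% in clusters of 4, 28.3% in clusters of 5 or 6 and 25.1% in clusters of 7 to 24. Introns held 41.0% of lone summits, 52.3% in clusters of 4 and 56.3% in the largest. In the replicates promoters held 37.8% ± 3.67 of lone summits and 23.1% ± 2.54 of those in clusters of 7 or more (SD, n = 3), and introns 39.7% ± 2.16 and 55.6% ± 3.98. The replicate values of these end classes did not overlap for either position.

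**Figure D4:**
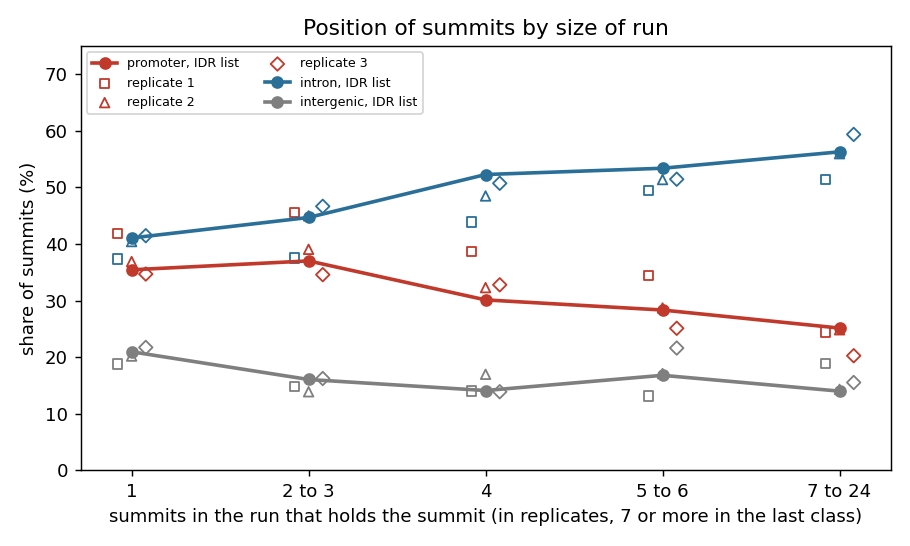
Share of summits (%) at promoters, in introns and in intergenic sequence against the size of the run that holds the summit. Lines join IDR values and open symbols are the 3 replicates. The intron line rises from 41.0% to 56.3% and the promoter line ends at 25.1%.

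The shortage of promoter summits was greatest among the strongest peaks. Among the 946 strongest IDR summits, promoters held 37.5% of the 275 clustered and 64.1% of the 671 others. Among the 946 strongest peaks of replicates 1, 2 and 3 the same shares were 42.0% and 67.2%, 36.5% and 63.2%, and 34.5% and 66.1%, a difference of -27.9 points (± 3.36, SD, n = 3; exact permutation p = 0.25). In the set of lowest signal promoters held 26.6% of the 207 clustered and 30.1% of the 738 other IDR summits, and the difference in the replicates was -0.524 points (± 1.39, SD, n = 3; exact permutation p = 0.75). The replicate values of the strongest and the weakest set did not overlap. The shortage began below the size of a cluster. With nearly the same cut for strong IDR summits, promoters held 74.7% of lone summits and 54.2% of those in runs of 2 or 3. They held 42.7% in clusters of 4, 31.8% in clusters of 5 or 6 and 39.7% in clusters of 7 to 24. Outside clusters promoter peaks had a median signal of 624.6 against 470.2 elsewhere, and in clusters 581.9 against 544.6.

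Few clusters were built of promoters alone. At least 1 promoter summit was present in 330 clusters (73.7%) and 2 or more in 187, but in only 9 was each summit at a promoter, against 82 wholly in introns and 30 wholly intergenic. The strongest summit was in an intron in 237 clusters, at a promoter in 142 and intergenic in 61. No TSS lay within the span of 137 clusters, and in 200 clusters all summits were in a single protein-coding gene. The median distance from a member to the nearest TSS was 1416 bp, against 1200 bp for other summits, yet 83.7% of members and 76.2% of other summits were within 5000 bp of a TSS. Promoter summits were upstream of the TSS in 67.2% of members and 77.2% of others.

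The spans held other features at a higher density than the rest of the arms. There were 30.4 TSS positions per 100 kb in the spans and 17.4 elsewhere. Pooled peaks that were not on the IDR list numbered 35.6 per 100 kb in the spans and 15.0 elsewhere. In both counts elsewhere includes chromosome 4 and the sequence near centromeres, which had few peaks. In 347 clusters at least 1 pooled peak that was not on the IDR list lay between the summits. The spans were drawn around peaks, and the surroundings of other IDR peaks were not compared separately. A TSS lay within 2000 bp of 60.6% of members and 59.2% of other summits, so the higher TSS density is not shown to be particular to clusters. Clusters were spread over all large arms. Members made up 21.6% of IDR summits on 2L, 25% on 2R, 28.02% on 3L, 22.5% on 3R and 24.3% on X, and none of the 8 summits on chromosome 4. The share on 3L in replicates 1, 2 and 3 was 23.9%, 29.0% and 27.6%, the highest of the arms in each replicate. The median distance from a cluster to the previous one on the arm was 132.8 kb, and 43 clusters were within 10 kb of it.

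Sequence words were scored within 50 bp of each summit on both strands and compared with the flank windows. A match is a description of letters, not a bound site. TATAAA, the TATA box word, was present at 22.7% of clustered summits and in 10.3% of their flanks, and at 25.9% of other IDR summits. AAAAAA was present at 27.2% of clustered summits, 20.7% of flanks and 28.05% of other summits. The word GAGAG of the GAGA factor was present at 8.95% of clustered summits and 17.1% of flanks, against 8.72% of other summits. GAGG or GGGG, the G-rich words known for CG2678 in ovaries, were present at 31.8% of clustered summits and 55.2% of flanks, against 29.2% of other summits. These words share letters with the base composition of the summits, which differs from that of the flanks.

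Between clustered and other summits the words differed little. The CA repeat ACACAC was present at 7.43% of clustered and 5.52% of other summits, and at 7.22%, 6.93% and 7.44% against 6.28%, 5.65% and 5.73% in replicates 1, 2 and 3, with no overlap of the groups. GAGG or GGGG were present at 32.7% ± 1.11 of clustered and 30.3% ± 0.596 of other summits of the replicates (SD, n = 3). GCCAT, the word of the Polycomb factor Pho, was present at 11.9% of clustered and 13.1% of other summits, and the Zelda word CAGGTA at 1.48% and 1.79%. The Dref word TATCGATA was present at 0.434% and 0.769%, which is 10 clustered summits.

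At the level of genes, 606 of the 13945 protein-coding genes (4.35%) held a clustered summit within the gene or up to 500 bp before its start, and 275 of them held 4 or more. The replicates' own lists gave 642, 629 and 567 genes (612.7 ± 40.1, SD, n = 3). A summit in overlapping genes counts for each of them. These genes were long, with a median length of 9040 bp against 2166 bp for all protein-coding genes and 4320 bp for those with an IDR summit outside clusters only. The share of genes that held a clustered summit rose from 1.42% of genes up to 1000 bp to 2.43% at 2000 to 5000 bp. It was 11.6% at 10000 to 20000 bp and 19.9% of genes over 50000 bp. The share with any IDR summit also rose, from 10.27% of genes up to 1000 bp to 81.76% of those over 50000 bp. Among genes with an IDR summit, 38 of 275 and 61 of 251 in these end classes held a clustered one. The density of clustered summits did not rise steadily with length. Per 100 kb it was 2.356 in genes up to 1000 bp and 1.285 at 2000 to 5000 bp. It was 3.497 at 10000 to 20000 bp and 1.389 over 50000 bp. The counts for gene lists have to be read beside gene length and the share with any IDR summit. Lists hold genes of mixed length, so the class of a list's median length is a loose comparison.

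Some long genes held several clusters: 34 genes had 2 or more. The 6 genes with 3 clusters were rdx with 19 clustered summits, CG1677 with 19, fz2 with 16, tara with 15, CG32264 with 14 and px with 13. After shn, the genes with the most clustered summits were these together with CHES-1-like and ftz-f1, with 14 each, and ush, with 13. Length and count did not run in parallel throughout: kirre, with 394149 bp, held 9 clustered summits of 48 IDR summits, whereas in PRAS40, with 16126 bp, all 11 IDR summits were clustered.

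Among genes of signalling pathways the EGF receptor list had the highest share. A clustered summit was held by 8 of its 20 genes (40.0%), against 4.35% of all protein-coding genes and 11.6% of those of 10000 to 20000 bp, the class of the list's median length of 11340 bp. In replicates 1, 2 and 3 the share was 40.0%, 35.0% and 35.0%. The genes with the most clustered summits were aop, an ETS repressor gene, with 12, pnt with 10, Raf with 9 and spi, which encodes the ligand Spitz, with 4. The gene sty also had 4, and Krn, edl and aos had 3 each. Among aop, pnt, Raf and spi are thus a ligand, a kinase and both an activator and a repressor of transcription of the pathway. Of these, aop, Raf and pnt, with 22271, 48405 and 55937 bp, were longer than the class of 10000 to 20000 bp, and spi, with 9416 bp, was shorter. An IDR summit of any kind was held by 14 of the 20 genes, against 3981 of all 13945 and 57.3% of that class. In that class 112 of the 552 genes with an IDR summit held a clustered one. The Wingless list had 5 of 20 genes (25%, in the same length class), with 23.3% ± 2.89 in the replicates (SD, n = 3). An IDR summit of any kind was held by 10 of the 20. The receptor gene fz2 had 16 clustered summits and the feedback inhibitor gene nkd had 5. Notum, a gene of a secreted inhibitor, the ligand gene Wnt4 and arr had 4 each.

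Other pathway lists had similar or lower shares. The Hedgehog list had 3 of 14 (21.4%), which were rdx, ttv, a heparan sulfate synthesis gene, with 5 summits and the receptor gene ptc with 4. The Dpp list had 4 of 19 (21.1%), with shn at 24, the inhibitory Smad gene Dad at 5, and the receptor gene wit and the antagonist gene sog at 4 each. The Notch list had 4 of 22 (18.2%), led by the coactivator gene mam with 8 and the ubiquitin ligase gene Nedd4 with 4, followed by mib1 with 2 and E(spl)mbeta-HLH with 1, but its share was 4.55%, 22.7% and 9.09% in the replicates. The median lengths of these lists, 7974, 7566 and 6120 bp, fall in the class of 5000 to 10000 bp, of which 6.38% held a clustered summit. The genes that led them were far longer, with 64997 bp in rdx, 58309 bp in shn and 69154 bp in mam. Others, such as wit with 7566 bp and mib1 with 5261 bp, lay in that class. Genes over 50000 bp had 19.9%, so 6.38% is a low background for lists of such mixed length. An IDR summit of any kind was held by 7 of the 14 Hedgehog, 11 of the 19 Dpp and 13 of the 22 Notch genes. In the class of 5000 to 10000 bp 613 of the 1505 genes held one, and 96 of these 613 held a clustered one. Ecdysone response and nuclear receptor genes had 4 of 25, with ftz-f1 at 14, Eip63E at 8 and EcR and Eip75B at 4 each, and their 16.0% was near the 16.7% of genes of 20000 to 50000 bp, the class of their median length.

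Lists of cell structure and regulation were led by long genes. Actin and cell shape genes had 6 of 21, with Moe, the moesin gene, at 7, ena at 6 and sn, the fascin gene, and shot at 5 each (28.6%, against 11.6% of genes of 10000 to 20000 bp; replicates 31.7% ± 5.50, SD, n = 3). These named genes, with 25321, 22074, 22578 and 77874 bp, were longer than that class. An IDR summit of any kind was held by 16 of the 21, against 57.3% of that class. RNA-binding regulators had 6 of 22 (27.3%), and their median length was 70960 bp. The list was led by shep at 10, brat at 7 and Sxl, the sex determination gene, Rbfox1 and pum at 4 each. Axon guidance and adhesion genes had 8 of 34 (23.5%), with kirre at 9, Nrg, the neuroglian gene, and Ptp10D at 7 and Ten-a at 5. For both of these lists the class of their median length, genes over 50000 bp, had 19.9%. An IDR summit of any kind was held by 19 of the 22 RNA-binding regulators and 26 of the 34 axon guidance and adhesion genes. In that class 251 of the 307 genes held one, and 61 of these 251 held a clustered one. BTB domain factors, with a median length of 47710 bp, had 4 of 16 (25%, against 16.7% of genes of 20000 to 50000 bp). These were Trl with 5, psq with 4, ken with 3 and lola with 2. An IDR summit of any kind was held by 15 of the 16. In that length class 520 of the 706 genes held one, and 118 of these 520 held a clustered one. Ion channel genes had 2 of 18 (11.1%), Irk1 with 10 and KCNQ with 4, below the 16.7% of genes of 20000 to 50000 bp. Muscle genes had 2 of 22 (9.09%), against 11.6% of genes of 10000 to 20000 bp, namely the integrin gene mew and the transcription factor gene Mef2 with 8 each.

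Of the lists of short housekeeping genes, that of cytoplasmic ribosomal proteins stood furthest above its length class. Cytoplasmic ribosomal protein genes, with a median length of 1315 bp, had 15 of 92 (16.3%; replicates 13.4% ± 2.51, SD, n = 3), against 2.21% of genes of 1000 to 2000 bp. The excess was also present for IDR summits of any kind, which 66 of the 92 held, against 709 of the 3842 genes of that class (18.45%). Among genes with an IDR summit, 15 of these 66 and 85 of the 709 held a clustered one. Each held few clustered summits, at most 4 in RpS23 and 2 in RpLP2, RpL27A and RpL30. The list was made by symbol and includes ribosomal protein-like genes. Mitochondrial ribosomal protein genes had 3 of 73 (4.11%), mRpL27, mRpL34 and mRpS22, and 5.48% in each replicate. This was above the 1.42% of genes up to 1000 bp, the class of their median length of 909 bp. All protein-coding genes had 4.35%. An IDR summit of any kind was held by 27 of the 73, against 275 of the 2678 genes of that class. Among genes with an IDR summit, 3 of these 27 and 38 of the 275 held a clustered one. Proteasome genes had 1 of 48 (2.08%), Prosalpha4, near the 2.21% of genes of 1000 to 2000 bp. None of the 8 Hox genes, of the 25 gap, pair-rule and segment polarity transcription factor genes or of the 119 odorant and gustatory receptor genes held a clustered IDR summit. Genes of their length classes had 16.7%, 2.43% and 2.21%, and nothing is read from the counts of 0 in lists of these sizes. In replicate 1 alone 4% of the segmentation list did. The Hox genes had a median length of 30560 bp, and 4 of the 8 held an IDR summit outside clusters.

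**Figure D5:**
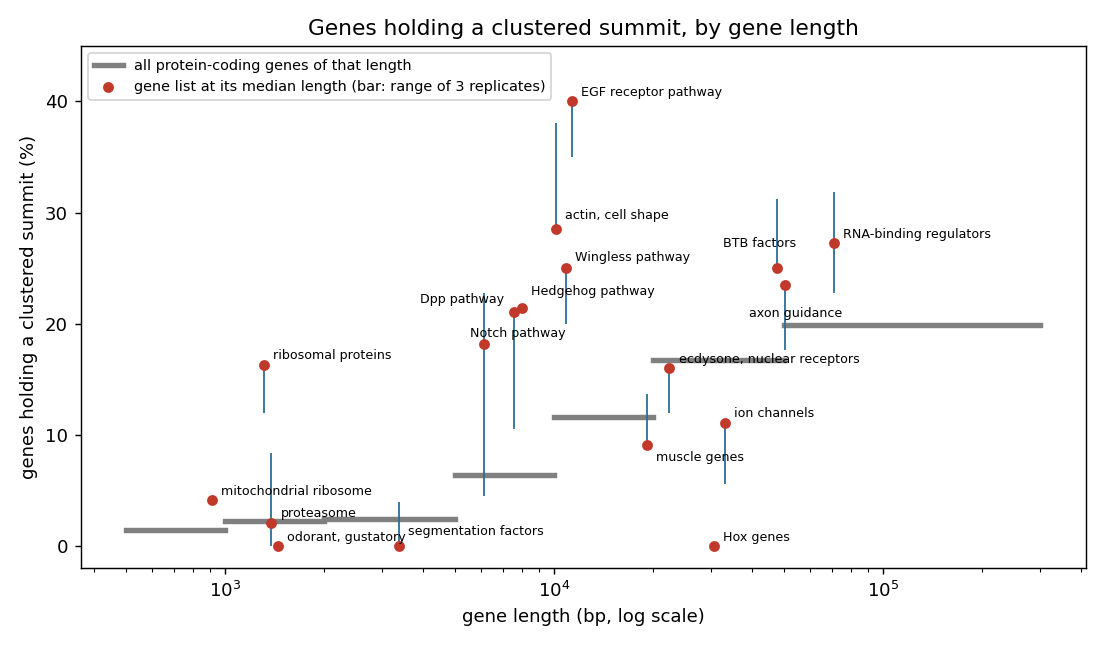
Share of genes (%) that hold a clustered summit against gene length (bp, log scale). Grey bars are all protein-coding genes of a length class, and points are gene lists at their median length with vertical lines from the lowest to the highest replicate. The grey bars rise from 1.42% to 19.9%, the EGF receptor list stands at 40.0% and the ribosomal protein list at 16.3%.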

How the data were processed

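Peak lists of 3 biological replicates and of the replicates pooled, with 30000 peaks each, and the IDR list of 9459 peaks were used as deposited on dm6. The signal score of each peak is the authors' value, per the deposited lists, and the summit is their offset from the peak's start. Aligner and peak caller: not given in the sources used here. IDR peaks were called on pooled samples, and P-values over summits were not computed. Runs of summits, matches within 100 bp, positions (promoter before UTR and coding exons, these before introns, then other exons, else intergenic) and GC content were computed with Python 3.11.15, numpy 2.4.6 and pandas 2.3.3, on 18164 genes of Ensembl release 115 (BDGP 6.54, transposable elements left out) and the RefSeq sequence of the same assembly, and the run-joining code was tested on simulated data. The only test was the exact sign-flip permutation over 3 replicates, each cut to its 9459 strongest peaks. The members, gene lists, words and genes named were chosen with earlier results of these data known. Named were the 25 clusters with the most summits (ties by summed signal), by the gene whose body holds most of their summits (protein-coding genes first, then the shorter gene; with none, the gene of the nearest TSS), the 5 with the highest signal, the 3 with the longest span, and up to 4 genes per list; CG46310, dos, Bacc, cbt, CG5445, mtSSB, tara and CG32264 were named after their values were seen. So were sty, edl, aos, arr and pum, of which sty, arr and pum tied with the last gene named by the rule for their list. The labels name no batch, and whether replicates came from separate embryo collections is known only as far as they are labelled biological replicates. Spans, distance limits, summit numbers, match distances, promoter widths, GC windows and stricter lists were varied.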

Additional observations from a re-analysis of the deposited data

How the results depend on the processing

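The numbers of clustered summits, clusters and genes (2303, 448 and 606) depend on the rule. They were 1256, 258 and 307 with 2000 bp between neighbours, 4046, 679 and 1294 with 5000 bp, 3752, 931 and 1161 with at least 3 summits, and 1423, 228 and 335 with at least 5. With the 4730 stronger peaks they were 447, 95 and 126, with peaks matched in all replicates 689, 145 and 194, and with peaks matched in both of the other replicates, leaving out each replicate in turn, 843 to 1024, 175 to 206 and 246 to 277. These lists hold fewer peaks, so runs break. With the strongest summit of each interval, or of overlapping intervals (chosen after seeing the data), they stayed within 1.5 times.

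The promoter difference of -8.05 points kept its sign under all alternatives run. It was -5.38 with 5000 bp, -4.93 with at least 3 summits, -14.0 in the 4730 stronger peaks, -11.1 in peaks matched in all replicates, -9.10 with the strongest summit of overlapping intervals, -5.79 with promoters of 1000 bp and -10.7 to -9.13 without each replicate. The intron difference of 10.7 points also kept its sign, at 8.67 with 5000 bp, 8.96 with at least 3 summits, 12.1 with the strongest summit of each interval, 12.2 with that of overlapping intervals, 12.02 in the 4730 stronger peaks, 9.29 in peaks matched in all replicates, 8.86 with promoters of 1000 bp and 8.11 to 12.05 without each replicate. The GC difference of 1.27 points was 0.869 in peaks matched in all replicates, 0.803 within 100 bp of the summit and 0.688 to 1.17 without each replicate. The difference in matched summits, 1.67 points, was 2.88 with the strongest summit of overlapping intervals, 3.94 with at least 5 summits and 5.00 within 200 bp, and turned to -0.0198 in the 4730 stronger peaks and -0.102 within 50 bp, so no direction is read from it. It was 1.36 to 2.11 without each replicate. The cause was not tested. No paired analysis was possible because groups of samples to pair by replicate number were lacking; clustered and other summits were compared within each replicate. Read depth is unknown, so no counting error could be given for any summit.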
